A study of Homo sapiens with 16 samples.

Results

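The cells described here were those that the authors' deposited annotation named Endo.cells, the endothelial cells that line the blood vessels of the tumors. They numbered 455 of 48824 cells in all, with 249 of 25723 cells from the long-term experiment, 88 of 15094 from the short-term T22 experiment and 118 of 8007 from the short-term T127 experiment. The name was used as deposited and was then checked against Pecam1, Cdh5, Kdr and Flt1, the defining markers of endothelium.

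Single-cell RNA sequencing was applied to mammary tumors grown in female FVB mice, 6 weeks old, from 2 mouse-derived syngeneic transplants. Both tumor lines, LPA1-T22 (sensitive to PARP inhibition) and LPA1-T127 (resistant), came from mice that carry an LPA1 receptor transgene in the mammary epithelium, and chunks of each were placed in the mammary fat pad. Mice received vehicle or olaparib at 50 mg/kg daily, for 20 days in the long-term experiment, where a mouse bore 1 line or both lines on opposite sides, and for 4 or 8 days in the short-term experiments, with 1 line each. Tumors of an experiment were tagged, mixed and captured in 8 pools (long-term) or in 4 pools (each short-term line).

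The tumor that each cell came from is not given in the files used here. Vehicle and olaparib tumors, and in the long-term pools both lines, are therefore mixed in every value, and each experiment counts as 1 sample. Whether the pools of an experiment hold the same mix of tumors is not given in the sources used here. No test between groups was possible, so values are given with their range over pools, and intervals cover counting error only. Each short-term experiment rests on 1 transplanted line, and line and library cannot be told apart between the 2 short-term experiments. The pools held between 34755906 and 55600377 unique molecular identifiers (UMIs, each marking 1 captured RNA molecule) each. Cells of the long-term pools shared barcodes: of 282 endothelial cells deposited there, 33 were shallower copies of a barcode seen in another pool and were left out, 29 of them in pools 1 and 2 (14 and 15). Of the 31 shared barcodes with an endothelial copy, 26 were endothelial in every copy. In the short-term pools 20 (T22) and 3 (T127) barcodes were shared, 0 of them with an endothelial copy.

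Endothelial cells form the inner wall of vessels. VEGF receptors drive their growth, and at the front of a new sprout the tip cells carry Dll4, which signals through Notch to the stalk cells behind them. Arteries, capillaries and veins differ in the genes their lining expresses, postcapillary venules display selectins and adhesion molecules that slow passing leukocytes, and PDGF-B from the endothelium recruits the mural cells (pericytes and smooth muscle cells) that wrap it. Tumor vessels are known to sprout and to leak more than those of healthy tissue.

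Endothelial cells made up 0.968% of long-term cells (95% exact Clopper-Pearson interval 0.852% to 1.10%). The share was 0.583% in the T22 pools and 1.47% in the T127 pools. By pool it ran from 0.681% to 1.23% in the long-term experiment, from 0.544% to 0.609% in T22 and from 1.07% to 2.05% in T127, so the T127 pools lay above the T22 pools without overlap. Long-term pools 1 to 4 ran from 0.681% to 1.01% and pools 5 to 8 from 0.998% to 1.23%, and the median mitochondrial share of their endothelial cells ran from 0.740% to 1.12% and from 1.42% to 1.95%. Of the non-malignant cells alone, endothelial cells were 1.32%, 0.670% and 3.77%. Among the 3 stromal clusters (endothelial, my_CAF and i_CAF) they were 22.8%, 17.3% and 53.4%, with my_CAF and i_CAF being the annotated myofibroblastic and inflammatory fibroblast clusters. The annotation held only 8 my_CAF cells in T127, against 129 in T22 and 117 in the long-term pools. A share also reflects which cells survive dissociation, and its part here was not tested.

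**Figure D1:**
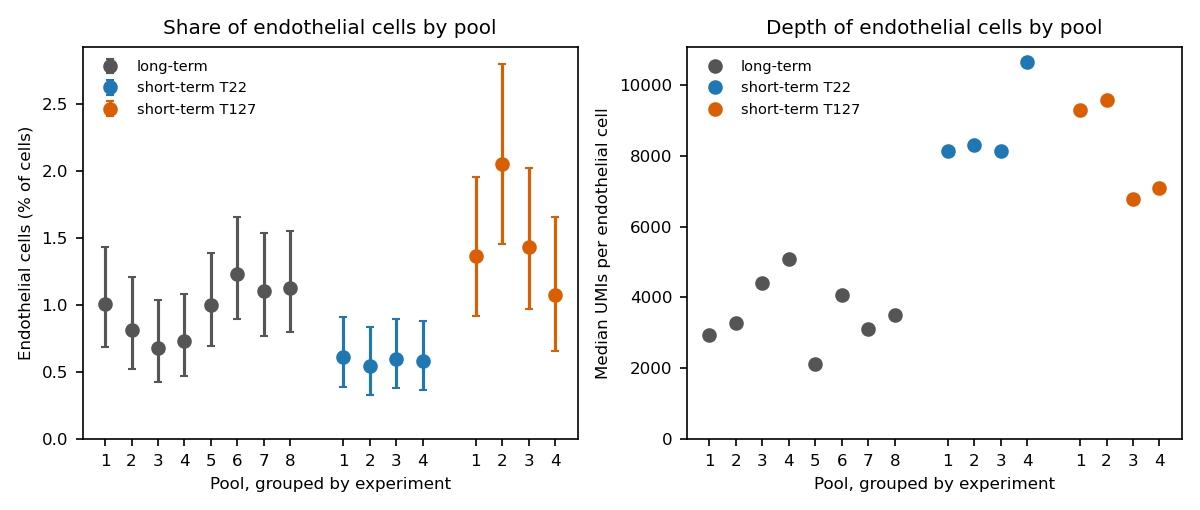
Left, the share of endothelial cells among all cells in each of the 16 pools, in percent, with 95% Clopper-Pearson intervals that cover counting error only. Right, the median UMIs per endothelial cell in each pool; the 4 T127 pools sit above the 4 T22 pools in share, and the 8 long-term pools sit below all short-term pools in depth.

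Long-term endothelial cells were shallow. Their median was 3426 UMIs, against 10428 over all long-term cells. In T22 the median endothelial cell held 8779.5 UMIs (8180.5 over all cells) and in T127 8416 (24059 over all cells). Summed, the endothelial cells gave 1140659, 821297 and 1131804 UMIs. Levels below are UMIs of a gene per 1000000 UMIs (CPM) summed over the endothelial cells of an experiment, so that 1 UMI is worth about 1 CPM. The 3 values of a gene are always in the order long-term, T22, T127, unless named.

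All 15 genes of an endothelial panel were higher in endothelial cells than in all other cells, in each experiment. Their summed level was 12646 CPM (pools 10528 to 15843), 14428 CPM (13562 to 14947) and 12916 CPM (12299 to 14372). In all other cells it was 47.6, 62.8 and 34.2 CPM. Here and below a gene is called higher or lower when it reached 10 CPM on either side and the log2 ratio, with 1 CPM added to each side, was at least 1 in size. Of all genes tested, 18.8% were called higher and 16.2% lower in the long-term pools, 16.9% and 18.7% in T22, and 15.6% and 18.7% in T127. With a minimum of 50 CPM the counts called higher went from 1681, 1623 and 1446 to 806, 934 and 817. Since the cells were clustered on these same genes, all comparisons with other cells are descriptions. The median log2 ratio of all genes was 0.14, 0.04 and -0.05, and that of the panel 8.11, 7.99 and 7.90.

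Cell by cell, all 4 defining markers had a UMI in 137 of 249, 77 of 88 and 93 of 118 endothelial cells. None of the 4 had one in 17, 2 and 5 cells. Among long-term cells with at least 2000 UMIs, 121 of 169 held all 4 and 1 held none. Of such cells 72 of 75 in T22 and 90 of 103 in T127 held all 4, and 0 and 3 held none. At least 3 UMIs of the 15-gene panel were present in 238, 87 and 118 cells. The same cut was passed by 75 of 117, 106 of 129 and 7 of 8 my_CAF cells. In i_CAF 250 of 726, 235 of 291 and 40 of 95 cells passed it. Thinned to 2000 UMIs, 168 of 169, 75 of 75 and 103 of 103 endothelial cells passed. So did 23 of 100, 18 of 118 and 1 of 8 my_CAF cells, and 12 of 674, 18 of 285 and 0 of 91 i_CAF cells. After thinning to 2000 UMIs, Pecam1 was found in 86.4% of long-term endothelial cells and in 0.445% of i_CAF cells, whose unthinned medians were 3426 and 14498 UMIs. Unthinned, the Pecam1 shares were 85.1% and 1.10%. Flt1 set the clusters apart less. Thinned, it was found in 60.4%, 85.3% and 64.1% of endothelial cells and in 16%, 11.9% and 62.5% of my_CAF cells. In T127 my_CAF was 8 cells. The thinned Flt1 shares in i_CAF were 1.34%, 7.72% and 1.10%. Kdr was found in 12.3% of long-term i_CAF cells, or 2.08% when thinned. Thinned, Pecam1, Cdh5 and Kdr were found in 0 my_CAF cells of every experiment.

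Among the genes with the highest ratio to all other cells and at least 50 CPM in endothelial cells of every experiment, Rbp7, a retinol-binding protein of capillary endothelium, led with a log2 ratio of 9.95 in the long-term pools. Emcn (endomucin, a surface sialomucin) followed at 9.44, Cdh5 (VE-cadherin, the adhesion molecule of endothelial junctions) at 8.99 and Plvap (a protein of the diaphragms that bridge caveolae and fenestrae) at 8.81. Adgrl4, Egfl7, Esam, Ptprb, Cldn5, Tmem252, Clec14a, Mmrn2, Kdr, Btnl9, Myct1, Gpihbp1, Sox18, Flt1, Depp1 and Robo4 completed the 20 with the highest ratio, down to 7.61 for Robo4. Cdh5 reached 925, 1360 and 1718 CPM, against 0.827, 0.912 and 1.47 in all other cells. Emcn was steady at 1207, 1120 and 1135 CPM.

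The my_CAF cluster was close to the endothelial cells in Epas1, which the methods of the study name for endothelium, and in Sparcl1. Epas1, which encodes the hypoxia-inducible factor HIF-2alpha, was at 325, 468 and 346 CPM in endothelial cells and at 294, 481 and 724 CPM in my_CAF. Sparcl1, a matricellular protein, was at 3181, 3044 and 2477 CPM in endothelial cells and at 2076, 1954 and 1921 CPM in my_CAF. Neither was called higher in endothelial cells than in my_CAF in any experiment, and Epas1 was called lower in T127. Both were called higher than in i_CAF, where Epas1 was at 16.6, 32.0 and 30.6 CPM.

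Other markers separated the 2 clusters. Against my_CAF, 18.8% of genes tested were higher in long-term endothelial cells, 14.9% in T22 and 28% in T127, where my_CAF was 8 cells. Kdr (VEGF receptor 2) had 0 UMIs in my_CAF in the long-term and T22 pools against 954 and 1661 CPM in endothelial cells. Cd34, a sialomucin of the luminal surface, was at 933, 1275 and 1014 CPM, and at 0, 0.564 and 0 CPM in my_CAF. Fam167b, whose role is little known, was at 859, 659 and 923 CPM with 0 UMIs in my_CAF. In the long-term pools the genes of highest ratio against my_CAF, among those with at least 50 CPM in endothelial cells of every experiment, were Kdr, Cd34, Cdh5, Fam167b, Rbp7, Cd300lg, Adgrl4, Pecam1, Ptprb and Esm1.

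All 10 mural panel genes were lower in endothelial cells than in my_CAF in each experiment. The panel summed to 183, 398 and 474 CPM in endothelial cells and to 11776, 17386 and 15959 CPM in my_CAF. Mural panel UMIs exceeded endothelial panel UMIs in 0 of 249, 0 of 88 and 0 of 118 endothelial cells, which allows shares of up to 1.20%, 3.41% and 2.54% at 3 counts and of up to 1.47%, 4.11% and 3.08% by the Clopper-Pearson interval. In my_CAF they exceeded them in 117 of 117, 129 of 129 and 8 of 8 cells. Cspg4 (NG2, a pericyte proteoglycan) had 0 UMIs in endothelial cells of all 3 experiments.

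In each short-term experiment 1 endothelial cell stood out in mural UMIs, holding 256 of 327 in T22 and 234 of 537 in T127. The T22 cell, in pool 2, held 276 endothelial panel UMIs beside 256 mural ones, and 192 of all 197 endothelial Rgs5 UMIs of T22 were in it. Its T127 counterpart, in pool 1, held 237 and 234, with 133 of 135 Rgs5 UMIs. The next highest cells held 9 and 19 mural UMIs. Rgs5 encodes a G protein regulator that marks pericytes. Without these cells the mural panel was 89.1 CPM in T22 and 273 CPM in T127. Abcc9, the potassium channel subunit counted in the mural panel, was spread over 80, 25 and 70 endothelial cells, at 136, 85.2 and 259 CPM.

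Against i_CAF, 19.6%, 18.1% and 21.5% of genes tested were higher in endothelial cells. Rbp7, Emcn, Cdh5, Esam, Cd93, Pecam1, Cd36, Fam167b, Adgrl4 and Esm1 had the highest ratios in the long-term pools, by the same minimum. Cd93, a C-type lectin of the sprouting vessel, was at 1200, 1859 and 1720 CPM in endothelial cells and at 1.13, 0.282 and 6.23 CPM in i_CAF. Cd34 separated these 2 less, since i_CAF held 421, 200.1 and 253 CPM of it. All 7 fibroblast panel genes were lower in endothelial cells than in i_CAF in each experiment.

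The leukocyte, epithelial, fibroblast and glial panels each summed to less in endothelial cells than in all other cells. Against the same cells, mural panel genes were called higher in 2 of 4, 2 of 8 and 3 of 4 tested and lower in 1, 3 and 0. Smooth muscle panel genes were called higher in 1 of 4, 0 of 5 and 2 of 2 tested and lower in 3, 4 and 0. The leukocyte panel summed to 188, 54.8 and 43.3 CPM, against 8411, 6598 and 2401 CPM in all other cells, and Ptprc (CD45, the pan-leukocyte marker) had a UMI in 12, 4 and 2 endothelial cells. C1qa, a macrophage complement gene, had a UMI in 26.9%, 13.6% and 10.2% of endothelial cells (median depth 3426, 8779.5 and 8416 UMIs) and in 40.2%, 21.6% and 13.7% of i_CAF cells (14498, 25169 and 21359 UMIs). Thinned to 2000 UMIs, the shares were 13.0%, 2.67% and 5.83% of endothelial and 11.9%, 5.26% and 5.49% of i_CAF cells. Dcn (decorin), a fibroblast matrix gene, had a UMI in 16.1%, 7.95% and 17.8% of endothelial cells, or 4.14%, 2.67% and 2.91% when thinned. The epithelial panel was at 45.6, 24.4 and 26.5 CPM against 1014, 612 and 1630 CPM, and the fibroblast panel at 96.4, 102 and 95.4 CPM against 2573, 2048 and 3352 CPM. The glial panel was at 1.75, 4.87 and 2.65 CPM, and the 4 adipocyte panel genes had 0 UMIs in every experiment. Hemoglobin differed: Hbb-bs, the adult beta chain, had a UMI in 248 of 249 long-term endothelial cells and in 720 of 726 i_CAF cells. The erythroid panel was at 6242 CPM in long-term endothelial cells (pools 1802 to 10489.9) and 2675 CPM in all other long-term cells, but 18.3 and 23.0 CPM in the short-term endothelial cells. What part free RNA had in these levels was not tested.

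**Figure D2:**
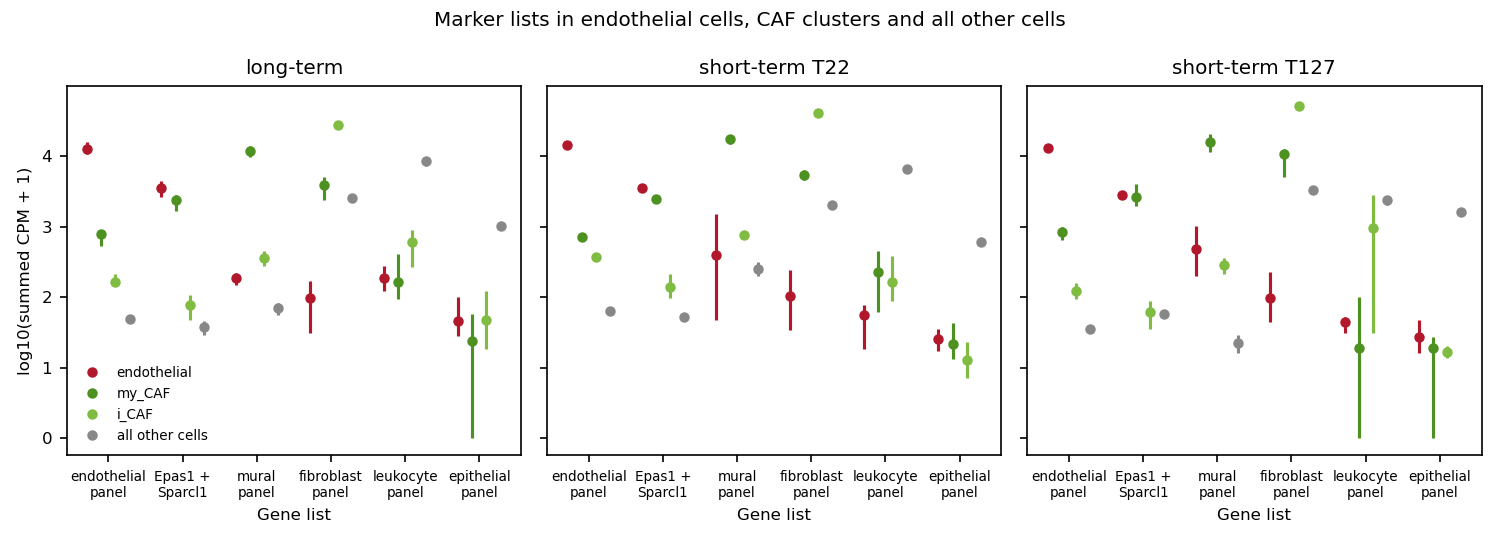
Summed level of 6 marker lists, as log10(CPM + 1), in endothelial cells, my_CAF, i_CAF and all other cells of each experiment; points are values over the whole experiment and bars run from the lowest to the highest pool. Endothelial cells lead on the endothelial panel everywhere, lie close to my_CAF on Epas1 and Sparcl1, and lie far below my_CAF on the mural panel. On that panel the T22 bar and the T127 bar are each stretched by 1 cell.

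The VEGF receptors and coreceptors were higher in endothelial cells in 5 of 5 tested (long-term), 5 of 5 (T22) and 4 of 5 (T127), with median log2 ratios of 6.06, 6.87 and 6.71. Flt1 (VEGF receptor 1) was at 718, 1215 and 789.9 CPM and Kdr at 954, 1661 and 1003 CPM. Kdr ran from 549 to 1311 CPM over the long-term pools, from 1359 to 2006 CPM in T22 and from 845 to 1406 CPM in T127, so the short-term pools overlapped. Nrp1, the neuropilin coreceptor, was at 806, 1053 and 630.0 CPM. Nrp2 was at 305 CPM in T127 endothelial cells against 225 CPM in all other T127 cells, the receptor that was not called there. Flt4 (VEGF receptor 3), at 76.3, 157 and 109.6 CPM, is found on lymphatic as well as on sprouting blood endothelium.

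Of 4 VEGF ligands tested in each experiment 2, 1 and 2 were called higher in endothelial cells and 2 lower. Vegfa was at 5.26, 3.65 and 16.8 CPM in endothelial cells and at 64.6, 52.5 and 215 CPM in all other cells, and was called lower in all 3 experiments. Vegfd had 0 UMIs in long-term and T22 endothelial cells and 1 UMI in T127, against 128, 43.1 and 133 CPM in i_CAF. Vegfc, the ligand of Flt4, was called higher in endothelial cells, at 33.3, 29.2 and 28.3 CPM.

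The lymphatic list was carried by Flt4 alone. Of 7 genes, 1 (Flt4) was called higher and 1 (Pdpn, podoplanin) lower in each experiment. Prox1, the regulator that sets lymphatic identity, had 2, 1 and 0 UMIs. Lyve1 had 3, 0 and 2, and Ccl21a had 0 throughout. In T127 the count of 0 for Prox1 was read from 118 cells, which allows a UMI in up to 2.54% of them at 3 counts and in up to 3.08% by the Clopper-Pearson interval.

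In the angiopoietin and Tie list 4 genes were called higher in each experiment. Tie1 was at 293, 387 and 309 CPM and Tek (the TIE2 receptor) at 124, 276 and 149 CPM. Ptprb (VE-PTP, the phosphatase that restrains TIE2) was at 505, 795 and 653 CPM. Angpt2, the ligand that endothelium itself releases to loosen its contacts, was at 338 CPM in the long-term pools and at 97.4 and 72.5 CPM in T22 and T127. Its agonist counterpart Angpt1 had 0, 2 and 0 UMIs in endothelial cells and was at 45.8, 62.1 and 35.7 CPM in my_CAF.

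Notch genes divided between endothelial cells and my_CAF. Dll4 was at 191, 205 and 277 CPM and close to 0 elsewhere (0.0824, 0.193 and 0.231 CPM in all other cells). Jag2 was at 96.4, 112 and 85.7 CPM. Among the receptors, Notch1 (214, 334 and 308 CPM) and Notch4 (170.1, 135 and 159 CPM) were called higher in endothelial cells in every experiment. Notch3, the receptor of mural cells, was at 0.877, 21.9 and 9.72 CPM in endothelial cells and at 404, 684 and 911 CPM in my_CAF. All 18 T22 UMIs of Notch3 came from 1 cell. Hes1 (118, 121 and 228 CPM) and Hey1 (103, 54.8 and 53 CPM), both Notch targets, were called higher than in all other cells, and Heyl had 0, 3 and 1 UMIs against 93.0, 228 and 169.8 CPM in my_CAF.

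The PDGF pair was split in the same manner. Pdgfb, the ligand, was at 281, 308 and 198 CPM in endothelial cells and at 5.39, 13.0 and 0 CPM in my_CAF. Pdgfrb, its receptor, was at 1.75, 20.7 and 14.1 CPM in endothelial cells, with all 17 T22 UMIs and all 16 T127 UMIs in 1 cell each, and at 656, 1313 and 1260 CPM in my_CAF. Pdgfa went the other way, at 38.6, 7.31 and 69.8 CPM in endothelial cells and 616, 364 and 447 CPM in my_CAF.

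Receptors for circulating lipids are given next, since both lines came from mice with an LPA1 receptor transgene in the mammary epithelium. A link between that transgene and endothelial cells was not tested. Lpar1, the gene of that receptor, had 0 UMIs in endothelial cells of all 3 experiments, which allows up to 2.63, 3.65 and 2.65 CPM at 3 counts, while i_CAF held 168, 194 and 236 CPM. Lpar6 (215, 225 and 148 CPM) and Lpar4 (55.2, 60.9 and 71.6 CPM), receptors of the P2Y-related branch, were called higher in endothelial cells than in all other cells throughout. S1pr1, the sphingosine-1-phosphate receptor that keeps endothelial junctions closed, was at 410.3, 413 and 305 CPM. S1pr3 had 0, 7 and 0 UMIs against 141, 469 and 206 CPM in my_CAF.

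Apelin and adrenomedullin genes were higher in 6 of 6, 6 of 6 and 5 of 6. Aplnr, the apelin receptor, was at 44.7, 118 and 94.5 CPM, and Apln, its ligand, at 241, 241 and 201 CPM. Calcrl, the receptor that adrenomedullin uses together with Ramp2 or Ramp3, was at 275, 374 and 268 CPM and Ramp2 at 68.4, 62.1 and 37.1 CPM. Of the BMP and TGF-beta genes 7 of 9, 6 of 8 and 4 of 8 were called higher and 1, 1 and 2 lower. Eng (endoglin) was at 692, 959 and 592 CPM and Acvrl1 (ALK1) at 116, 106 and 80.4 CPM.

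Transcription factors of endothelium were higher in 12, 13 and 13 of 16 tested. The ETS factor Erg was at 125, 159.5 and 149 CPM, and Fli1 at 145, 208 and 227 CPM. The SOXF genes Sox7 (68.4, 116 and 86.6 CPM), Sox17 (93.8, 116 and 91.9 CPM) and Sox18 (312, 572 and 597 CPM) were each under 1 CPM in all other cells. Klf4, a factor raised by laminar flow, was the member called lower in the long-term (80.7 against 231 CPM) and T127 (225 against 581 CPM) pools.

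Junction genes were higher in 8, 9 and 8 of 9 tested. Cldn5, the claudin of endothelial tight junctions, was at 359, 527 and 822 CPM and ran from 46.5 to 499 CPM over the long-term pools. Ocln (occludin) had 0 UMIs in every experiment. Basement membrane genes were higher in 14, 14 and 13 of 14 against all other cells. Col4a1 was at 4114, 7284 and 6771 CPM and Hspg2 (perlecan) at 706, 930.2 and 791 CPM. Set against my_CAF, 7, 3 and 4 of 14 were higher and 0, 0 and 2 lower, beside the 28% of all genes tested that were higher in T127, and Col4a1 itself, at 3702, 9288 and 7283 CPM there, was not called. Nid2 (nidogen-2) and Hspg2 were called higher than in my_CAF in each experiment.

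Caveolae and transcytosis genes were higher in 6 of 6 (long-term) and 6 of 7 (T22, where the other was lower), but in T127 only Plvap of 6 was. Cav1 was at 649, 612 and 698 CPM in endothelial cells, and at 74.1, 54.7 and 375 CPM in all other cells. Mfsd2a, the lipid transporter that suppresses transcytosis in brain endothelium, had 0, 2 and 0 UMIs. Of the fatty acid genes 5 of 6, 4 of 6 and 5 of 5 were called higher and 1, 2 and 0 lower. Among them was Fabp4, a lipid chaperone of capillary endothelium, at 10899, 2147 and 5424 CPM. Its pools ran from 9190 to 15010 CPM, from 1387 to 3185 CPM and from 4961 to 6658 CPM, so the 3 experiments did not overlap. Detection of Fabp4 in my_CAF and i_CAF was likewise highest in the long-term pools and lowest in T22. When thinned, it was found in 76%, 15.3% and 62.5% of my_CAF cells, of which T127 held 8. In i_CAF the thinned shares were 17.5%, 2.46% and 7.69%. Gpihbp1, which holds lipoprotein lipase on the capillary wall, was at 272, 166 and 97.2 CPM. Lpl, the lipase itself, had 0 UMIs in endothelial cells and was at 67.4, 54.2 and 26.8 CPM in my_CAF.

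Coagulation and vascular tone genes were called higher in 8 of 10, 7 of 9 and 7 of 9 and lower in 0, 1 and 0. Nos3, the endothelial nitric oxide synthase, was at 73.6, 80.4 and 103 CPM. Ece1, which activates endothelin, was at 393, 436 and 577 CPM, while Edn1 had 36, 3 and 9 UMIs.

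Capillary genes were higher in 7 of 7 tested in every experiment and summed to 15892, 6968 and 7190 CPM. Of arterial genes 7, 6 and 7 of 7 were called higher, of venous and postcapillary genes 4, 6 and 5 of 6, 7 and 6, and of tip cell genes 9, 7 and 8 of 9. Called lower were 1 venous gene in the long-term pools and Pgf among the T22 tip cell genes. Ackr1, the chemokine scavenger of postcapillary venules, had 0 UMIs in all 455 cells. Vwf (von Willebrand factor) was found in 22, 15 and 7 cells. Lrg1, which is raised in inflamed venules, was the broadest of the venous list, at 569, 619.8 and 965 CPM. Gja4, a connexin of arterial endothelium, was at 246, 194 and 135 CPM, but my_CAF held 563, 327 and 188 CPM of it.

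**Figure D3:**
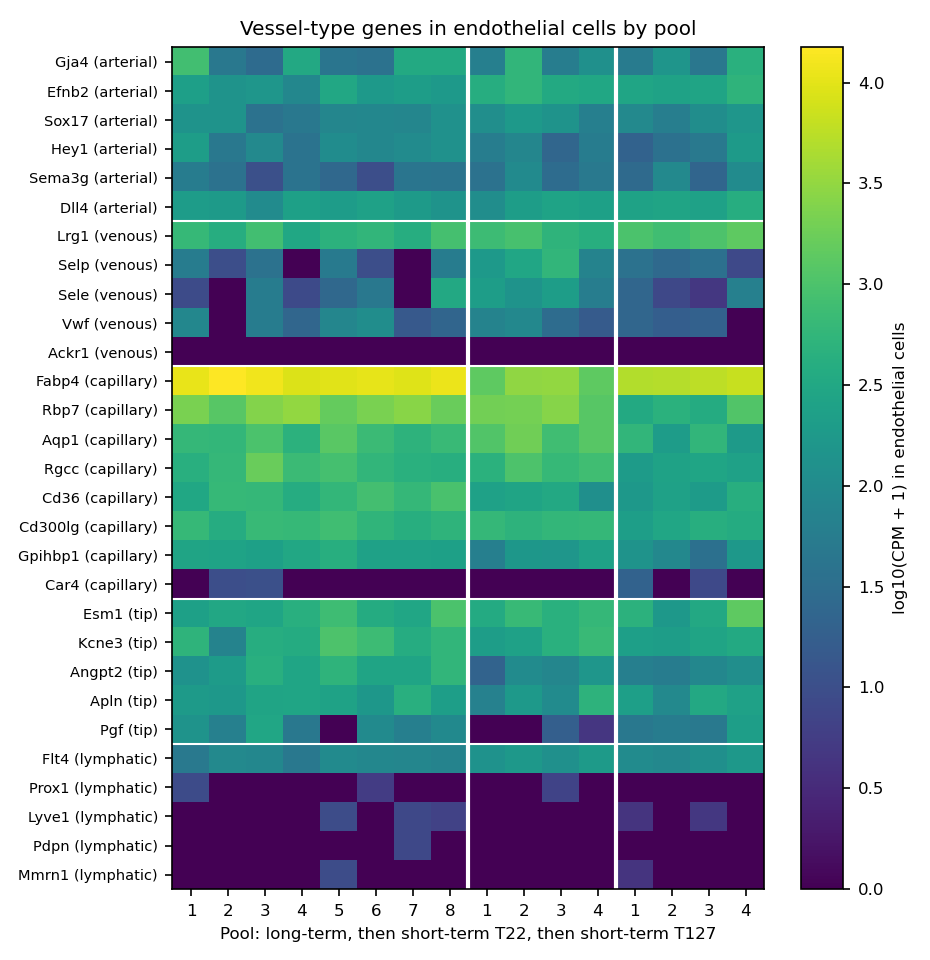
Level of 29 vessel-type genes in the endothelial cells of each pool, as log10(CPM + 1), with the 8 long-term pools first, then the 4 T22 pools and the 4 T127 pools. Fabp4 is the brightest row, Ackr1 is at 0 in every pool, Selp is brighter in the T22 pools, and of the lymphatic genes Flt4 is the one present throughout.

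Cells were then divided by whether they held a UMI of 1 gene, a choice made after the data were seen. Detection depends on depth, so the median UMIs of both sides are given, and levels are CPM of each side's own UMIs. Esm1 (endocan, a proteoglycan of tip cells) had a UMI in 116 long-term, 35 T22 and 46 T127 cells, with medians of 4223, 10393 and 8851 UMIs against 2833, 6777 and 7174 in the rest. Cells with Esm1 held more Apln, 6.92, 6.94 and 2.04 times the level of the rest. Angpt2 was 4.78, 19.9 and 2.38 times as high in them and Adm (adrenomedullin) 5.45, 4.65 and 3.46 times. The counting intervals of these 9 ratios all lay above 1, with the lowest bound at 1.48, but in T22 44.2% of the Apln UMIs in Esm1 cells came from 1 cell, and in T127 51.4% of the Adm UMIs did. Pecam1 was close to even at 1.19 (1.07 to 1.32), 0.964 (0.857 to 1.08) and 1.02 (0.923 to 1.13) times. Kdr was 1.36 (1.20 to 1.54), 1.54 (1.38 to 1.72) and 1.15 (1.02 to 1.29) times as high. Flt1 was at 1.00 (0.871 to 1.15), 1.24 (1.09 to 1.41) and 0.848 (0.741 to 0.970) times. Vwf was lower, at 0.197, 0.315 and 0.0649 times, and Selp had 0, 9 and 4 UMIs in cells with Esm1 against 30, 195 and 28 in the rest. Not all tip genes moved together: Kcne3, a potassium channel subunit, was 1.82 and 4.92 times as high in the long-term and T22 cells but 0.824 times in T127 (0.643 to 1.05). The T127 intervals of Pgf (1.26, 0.794 to 2.00), Unc5b (1.40, 0.981 to 2.00) and Lxn (1.21, 0.981 to 1.48) also held 1. Long-term cells with Esm1 held 8.88, 1.60 and 1.67 times as much of Pgf, Unc5b and Lxn. In T22 Unc5b and Lxn were 8.31 and 1.52 times as high, and Pgf had 1 UMI against 3.

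Cells with Sema3g, a semaphorin of arterial endothelium, numbered 26, 17 and 24. Their median depths were 5852.5, 8366 and 10144.5 UMIs against 3256, 8815 and 8070. Gja4 was 19.5, 15.3 and 18.6 times as high in them, Hey1 5.79, 10.6 and 7.5 times, Efnb2 (ephrin-B2, the classic arterial ligand) 2.94, 5.4 and 2.98 times, and Vegfc 9.34, 6.42 and 16 times. In T22 58.3% of the Gja4 UMIs on the Sema3g side came from 1 cell. Fbln5 (fibulin-5, an elastic fibre protein) was 8.75 and 7.26 times as high in the long-term and T127 cells but even in T22, at 0.999 times (0.367 to 2.35). On the Sema3g side 1 cell held 45.9% of the Fbln5 and 1 cell 46.5% of the Hey1 UMIs in T127. For Vegfc in T22, 1 cell held 40% of the 15 UMIs there. Of the tip cell genes, Apln was 0.136, 0.0795 and 0.317 times as high, but Esm1 was 1.59 (1.28 to 1.96), 3.4 (2.80 to 4.13) and 1.45 (1.19 to 1.76) times as high. In the long-term and T127 cells 51.8% and 69.1% of these Esm1 UMIs were in 1 cell. Cdh5 was at 1.06, 1.18 and 1.14 times.

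Selp (P-selectin) had a UMI in 9, 24 and 11 cells, of median depth 6373, 11274 and 11196 UMIs against 3385.5, 8431 and 8220. These cells held more Sele (E-selectin), 96.8, 10.4 and 70.3 times the level of the rest. Vwf was 10.5, 8.21 and 4.56 times, Icam1 5.91, 4.80 and 4.56 times and Lrg1 5.78, 2.49 and 1.57 times as high. Among the long-term cells 85.5% of the Sele and 73.9% of the Vwf UMIs on the Selp side were in 1 cell, and in T127 50% of the Sele and 85.7% of the Vwf UMIs were. For Icam1 1 cell held 55.8% of these UMIs in T22 and 57.1% in T127. Ephb4 did not follow. It had 0 UMIs in long-term cells with Selp against 9 in the rest. Its ratio was 1.24 (0.412 to 3.41) in T22 and 0.938 (0.181 to 3.07) in T127. The long-term intervals of Vcam1 (2.59, 0.284 to 11.4) and Nr2f2 (1.98, 0.51 to 5.55) also held 1. In T22 and T127 Vcam1 was 12.4 and 5.21 times and Nr2f2 1.72 and 2.16 times as high. The T127 value of Vcam1 rested on 4 against 6 UMIs. Esm1 had 0, 2 and 4 UMIs in cells with Selp, against 542, 429 and 489 in the rest.

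**Figure D4:**
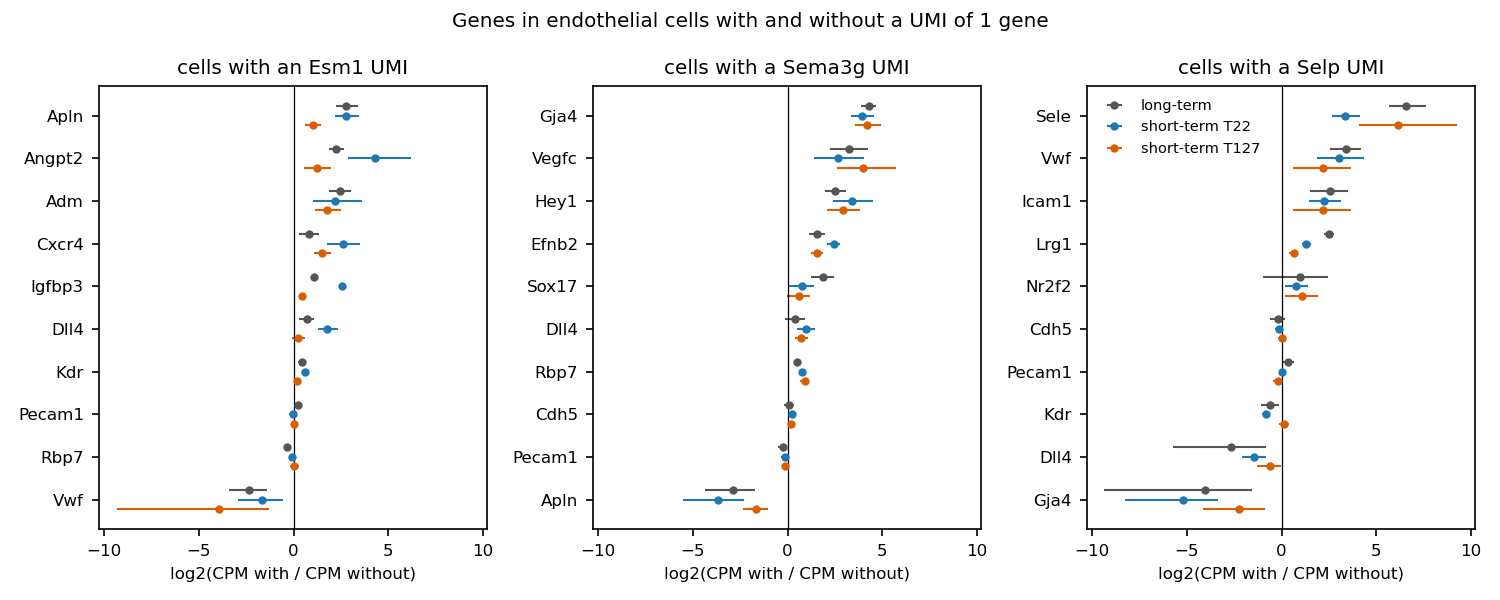
The log2 ratio of the level (CPM) of 10 genes per panel in endothelial cells with a UMI of Esm1, Sema3g or Selp to that in endothelial cells without one, for each experiment; bars are 95% counting intervals. Apln, Angpt2 and Adm lie to the right for Esm1, Gja4, Hey1, Efnb2 and Vegfc for Sema3g, and Sele, Vwf, Icam1 and Lrg1 for Selp. Among the genes not drawn are Kcne3, Pgf, Unc5b and Lxn for Esm1, Fbln5 for Sema3g, and Vcam1 and Ephb4 for Selp.

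Proliferation genes were called higher than in all other cells for 1, 1 and 2 of 8 and lower for 0, 1 and 0. At least 10 UMIs of the 8 genes were present in 18 of 249 (7.23%), 11 of 88 (12.5%) and 15 of 118 (12.7%) endothelial cells, which held 68.7%, 78.0% and 82.0% of these UMIs. Top2a, the topoisomerase of dividing cells, had a UMI in 31, 20 and 19 cells. The long-term cells were shallower, so these shares are not compared. PARP and p53 response genes had 0 members called higher and 4, 1 and 5 called lower. Cdkn1a (p21) was at 103, 99.8 and 87.5 CPM against 399, 166 and 629 CPM in all other cells. Of the hypoxia genes 2, 2 and 1 were called higher and 2, 2 and 3 lower. Immediate early and heat shock genes were called lower for 6, 0 and 2 of 8 and higher for 0, 1 and 1.

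Leukocyte adhesion genes were called higher in 5 of 7, 5 of 7 and 5 of 6, and lower in 1, 0 and 0. Icam2 was at 680.3, 442 and 519 CPM and Podxl at 239, 363 and 377 CPM, both broad, whereas Madcam1 had 7 UMIs, all in 1 long-term cell. Among chemokines Cxcl12 was at 637, 379 and 123 CPM, while 2, 1 and 2 of 7 were called higher and 3, 3 and 4 lower. MHC class I genes were called higher in 0 of 7, 0 of 8 and 6 of 7 and lower in 0, 1 and 0, and interferon-stimulated genes in 5 of 14, 0 of 13 and 11 of 14, while 2 of the 13 were called lower in T22. All other cells of T127 were lower in H2-K1 (495 CPM) than those of the long-term (1513 CPM) and T22 (1985 CPM) pools, whereas endothelial H2-K1 was 1951, 1393 and 1878 CPM. MHC class II genes were lower in each experiment in every one tested. Among complement genes 7 of 9, 5 of 9 and 3 of 6 were called lower and 1, 0 and 2 higher, with median log2 ratios of -3.34, -4.10 and -1.55, or -3.34, -2.33 and -1.16 with genes at 0 on 1 side set to 3 counts. Of the checkpoint ligands 1 of 2, 0 of 3 and 1 of 4 were called higher and 1, 1 and 2 lower, and Lgals9 (galectin-9) was at 507, 197 and 454 CPM.

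Between the 2 short-term experiments, a gene was called when it also separated all 4 T22 pools from all 4 T127 pools. That held for 234 of 8549 genes tested in the direction of T22 (2.74%) and for 183 in the direction of T127 (2.14%), with a median log2 ratio of all genes of -0.02. None of the 15 panel genes, 16 transcription factors, 14 basement membrane genes or 9 junction genes tested was called in either direction, with list medians of 0.06, -0.07, 0.16 and -0.06. With a minimum of 50 CPM these counts were 110 and 79, and without T22 pool 4 the count toward T127 was 289. Which tumors each pool holds is not given, so separation of pools is no measure of the spread between tumors.

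Of 7 capillary genes tested, 3 were called higher in T22 and 1 lower. Rbp7 was at 1935, 1985, 2663 and 1241 CPM in the T22 pools and at 346, 472, 374 and 1100 CPM in the T127 pools. The T22 sum was 3.80 times that of T127 (counting interval 3.45 to 4.20), with the closest pools 1241 and 1100 CPM. Aqp1, the water channel, was at 1105, 1892, 772 and 1219 CPM against 562, 202, 561 and 189 CPM, a ratio of 3.28 (2.93 to 3.68). Rgcc, a cell cycle regulator of hypoxic endothelium, was at 472, 1039, 626 and 783 CPM against 196, 253, 284 and 248 CPM, or 3.00 times. Fabp4 was the member lower in T22, at 1406, 3083, 3185 and 1387 CPM against 4961, 5085, 5852 and 6658 CPM. Fabp5, its epidermal relative, was lower too, at 196 against 549.6 CPM. The fibroblast clusters also held Fabp4 in a smaller share of cells in T22. When thinned, it was found in 15.3% of T22 and 62.5% of T127 my_CAF cells, the latter being 8 cells. In i_CAF these shares were 2.46% and 7.69%. Whether the endothelial difference in Fabp4 is separate from these was not tested.

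Selp stood at 182, 295, 551 and 73.2 CPM in the T22 pools. In the T127 pools it was at 36.6, 25.8, 33.7 and 7.28 CPM, so the pools did not overlap, and the T22 sum was 8.79 times as high (6.03 to 13.2). This separation rested on 1 cell of pool 3, which held 90 of the 204 T22 UMIs: without it that pool was at 32.0 CPM, under the highest T127 pool, Selp was no longer called, and the ratio was 5.01 (3.36 to 7.66). Cells with a Selp UMI numbered 24 of 88 and 11 of 118. Sele was 144 and 17.7 CPM, but its pools overlapped (58.6 to 213 against 3.74 to 65.6 CPM). Ramp3 was at 83.0, 153, 174 and 157 CPM against 29.9, 14.1, 7.48 and 36.4 CPM, or 7.33 times (4.62 to 12.1).

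Genes with the largest ratios toward T22 were Wfdc18, Ecrg4, Lef1, Apoc1, Krt5, Cck, Irx3, Enpep, Krt14 and Id4. Of these 10, all but Lef1 and Enpep were higher in T22 malignant than in T22 endothelial cells, from 93.1 CPM for Irx3 upward in the malignant cells. For Id4, 12 of the 16 endothelial UMIs were in 1 cell, and without it the gene was not called. Wfdc18, a secreted whey acidic protein family member, was at 96.2 CPM in T22 endothelial cells, at 0 in T127 endothelial cells and at 12134 CPM in T22 malignant cells. Krt5 and Krt14, keratins of basal epithelium, were at 23.1 and 19.5 CPM in T22 endothelial cells and at 1590 and 1964 CPM in T22 malignant cells. The other non-malignant cells of T22 held 25.7 and 29.2 CPM of these keratins, close to the endothelial levels. The part of malignant RNA in these values was not tested.

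Lef1 and Enpep differed from that group. Lef1, a transcription factor of the Wnt pathway, was at 25.9, 16.4, 23.2 and 76.9 CPM in the T22 pools and had 0 UMIs in T127. Counted against a floor of 3 UMIs over the T127 cells, it was at least 15.2-fold higher in T22, in 23 of 88 cells, while T22 malignant cells held 0.189 CPM and the other non-malignant cells 11.7 CPM (11.1 CPM in T127). Enpep (aminopeptidase A, which cleaves angiotensin II) was at 77.8, 43.7, 46.4 and 69.5 CPM in T22 and had 2 UMIs in T127. Its ratio was 34.5 (9.05 to 292), and T22 malignant cells held 0.0378 CPM. In my_CAF, Enpep was at 87.4 CPM in T22.

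Toward T127 the largest ratios were those of Ms4a6d, Hmga2, Cfb, S100a4, Sema3a, Tnc, Apol9a, Ppp1r14a, Nt5e and Apol9b. Ms4a6d, a tetraspanning membrane protein best known from macrophages, was at 213, 197, 232 and 219 CPM in the T127 pools and had 0 UMIs in T22, at least 58.1-fold higher by the same floor. It was found in 69 of 118 T127 cells. Malignant cells of T127 held 0.790 CPM of it, the other non-malignant cells 681 CPM (213 CPM in T22), and long-term endothelial cells 52.6 CPM. Hmga2, a chromatin protein, and S100a4, a calcium-binding protein, were at 59.2 and 448 CPM in T127 endothelial cells and at 2305 and 9957 CPM in T127 malignant cells, and 68.7% of the Hmga2 UMIs were in 1 endothelial cell. Without the cell with the highest count of each, 46 of 67 Hmga2 and 193 of 507 S100a4 UMIs, Hmga2 was at 18.9 and S100a4 at 284 CPM, and both were still called. Nt5e (CD73, which makes adenosine) was at 33.2, 44.6, 33.7 and 36.4 CPM in T127 and had 1 UMI in T22, a ratio of 31.2 (5.31 to 1261). Cfb, complement factor B, had 75 UMIs in T127 and 1 in T22.

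Interferon-stimulated genes were lower in T22 for 5 of 14, with 0 higher and a list median of -1.55. Irf7, a regulator of the interferon response, was at 10.4, 60.1, 5.80 and 3.66 CPM in the T22 pools and at 209, 242, 262 and 328 CPM in the T127 pools. The T127 level was 13.6 times that of T22 (8.10 to 24.6). Ifit3 was at 4.87 against 64.5 CPM and Bst2 (tetherin) at 405 against 942 CPM. Gbp2 and Usp18 were the other two, at 51.1 against 158 CPM and 12.2 against 41.5 CPM, and Usp18 was not called without the T127 cell with the highest count of it, 10 of 47 UMIs. In the other non-malignant cells Irf7 was at 94.7 CPM in T22 and 304 CPM in T127, so it was lower in T22 there as well, and Gbp2 went the other way, at 76.8 and 41.6 CPM. Of the MHC class I list Psmb8 alone was called, lower in T22 at 264 against 536 CPM, a call lost without the T127 cell with the highest Psmb8 count, 23 of 607 UMIs. Lgals9 was at 197 against 454 CPM.

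MHC class II genes were higher in T22 for 3 of 3 tested, at low levels. Cd74, the invariant chain, was at 46.3 against 7.95 CPM, H2-Aa at 31.7 against 4.42 CPM and H2-Ab1 at 32.9 against 2.65 CPM. In the other non-malignant cells Cd74 was at 7454 CPM in T22 and 4512 CPM in T127, and Ciita, the regulator that class II expression requires, had 0 UMIs in endothelial cells of all 3 experiments. The share of these levels due to free RNA was not tested. Pgf (placental growth factor) and Pdgfa were called lower in T22, Pgf at 4.87 against 71.6 CPM and Pdgfa at 7.31 against 69.8 CPM. Pgf had 4 UMIs in T22, a ratio of 14.7 for T127 over T22 (5.52 to 55.2).

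Arterial genes, Notch ligands and receptors, and VEGF receptors had 0 members called between T22 and T127. Pgf was the tip cell gene called, and Ramp3 the apelin and adrenomedullin gene. Cx3cl1, Cd55, Acta2, Abcc9 and Parp3 were the remaining list members called. Acta2 (smooth muscle actin) was at 97.4 CPM in T22 and 8.84 CPM in T127 endothelial cells, beside 4223 and 0.0682 CPM in malignant cells. Abcc9 was at 85.2 against 259 CPM. Cx3cl1, Cd55 and Parp3 rested on 13 against 3, 12 against 5 and 5 against 22 UMIs, and Cd55 was not called without the cell with the highest count of it, 3 of 12 UMIs.

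**Figure D5:**
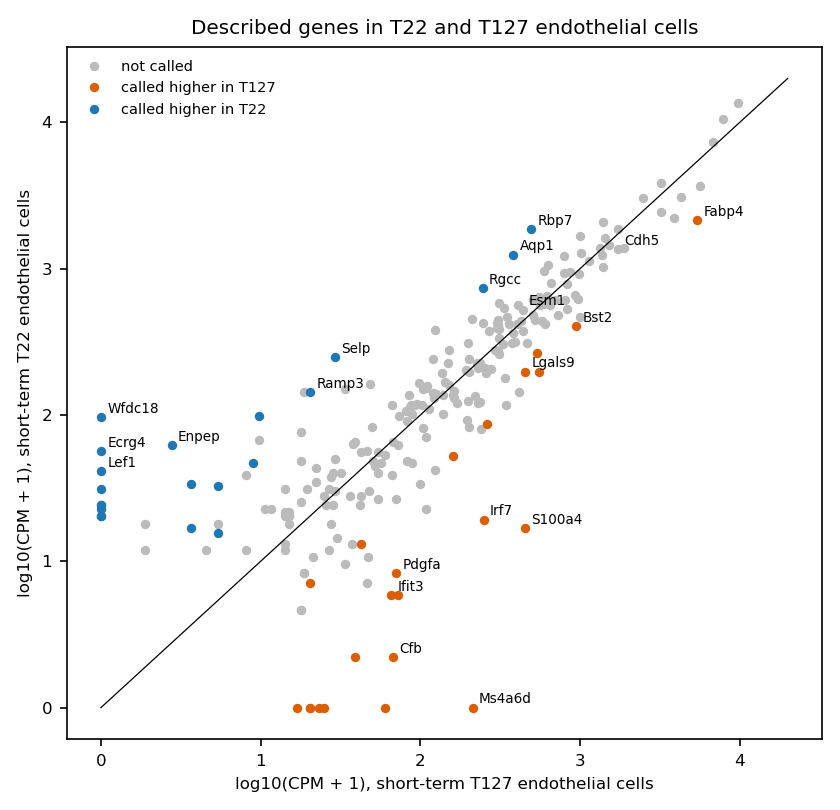
Level of each described gene in T127 endothelial cells (x axis) and T22 endothelial cells (y axis), both as log10(CPM + 1); blue and orange points were called higher in T22 and in T127, and the line marks equal levels. Cdh5 and Esm1 lie near the line, Selp, Rbp7, Aqp1 and Lef1 above it, and Ms4a6d, Irf7, S100a4 and Fabp4 below it.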

How the data were processed

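Tumors had been captured with 10x Genomics 3' chemistry. The authors mapped reads to GRCm38 with introns counted (Cell Ranger 6.0.0, per the labels), filtered cells by genes, UMIs and mitochondrial share in SCANPY, removed doublets with Scrublet, clustered the cells and annotated them. The deposited values are UMI counts per cell and gene, not normalized, with the annotation beside them, so no doublet caller was run here. Deposited tables of filtered, normalized cells were not used.

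In the long-term pools the deepest copy of a barcode shared between pools was kept. UMI counts were summed per cluster, experiment and pool and divided by the summed total (CPM). Levels have exact Poisson, shares Clopper-Pearson and ratios conditional binomial 95% intervals, for counting error only. Ratios used a pseudocount of 1 CPM, and calls a minimum of 10 CPM and a log2 ratio of 1. A level or share of 0 was bounded at 3 counts. Cells were thinned to 2000 UMIs where said. The code for calls and intervals was run on simulated counts that held counting error only. That check therefore does not cover spread between cells, pools or tumors, or UMIs that gather in 1 cell. Intervals came from scipy 1.17.1, tables from pandas 2.3.3 with numpy 2.4.6 and figures from matplotlib 3.10.9, under Python 3.11.15.

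Named were the genes of 42 lists, the 20 genes highest against all other cells and the 10 highest against each fibroblast cluster (at least 50 CPM in endothelial cells of every experiment), and the 10 largest called ratios each way between T22 and T127. The members and lists were chosen with earlier results of these data known. The division of cells by Esm1, Sema3g and Selp, and the values of Igfbp3, were added after the data were seen. Alternatives were all barcode copies, cells with at least 1000 genes, the top 5% of cells by UMIs left out, pools left out, other pseudocounts and minimums, a mean over cells, and other denominators. The labels give the organism as human, but the gene names are those of mouse. No genome of the build used was at hand, so no coordinates are given.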

Additional observations from a re-analysis of the deposited data

Results flagged for a closer look

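In 144 sets of pool values, 11 had a pool far from the others of its experiment. Chance flags about 1 in 20 such sets, and the sets share cells and pools. In T22, pool 2 was highest in the mural panel (1503 CPM, the others 46.7 to 113), in complement genes (476 CPM, the others 43.9 to 67.4), in arterial genes (1771 CPM, the others 830.0 to 917) and in interferon-stimulated genes (4642 CPM, the others 2723 to 3028). That pool held the T22 endothelial cell with 256 mural panel UMIs. Without it the pool was at 120 CPM for the mural panel and 101 CPM for complement genes, but still at 1626 CPM for arterial and 4674 CPM for interferon-stimulated genes.

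The T22 pool 4 had the deepest endothelial cells (median 10647 UMIs, the others 8126 to 8298.5), the lowest venous and postcapillary sum (662 CPM, the others 1515 to 1635) and the lowest MHC class I sum (6976 CPM, the others 7719 to 7867). In T127, pool 1 was highest in the fibroblast panel, at 226 CPM against 43.7 to 56.1 in the others, and was at 14.3 CPM without the endothelial cell with 234 mural panel UMIs. Of the long-term pools, pool 1 was highest in arterial genes (2313 CPM, the others 455 to 1244), and pool 5 in the epithelial panel (99.6 CPM, the others 27.2 to 55.3) and in Notch receptors (598 CPM, the others 287 to 421).

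For 4 of 42 lists the ratio of the summed level in endothelial cells to that in all other cells differed in direction. It pointed one way in every T22 pool and the other way in every T127 pool, a difference that was not tested. The median log2 ratios over pools were -3.03 in T22 and 2.94 in T127 for the smooth muscle panel, 0.73 and -0.34 for PDGF ligands and receptors, -0.34 and 1.63 for MHC class I genes, and 0.51 and -0.61 for immediate early and heat shock genes. By gene the PDGF list pointed the other way from its sum, with median log2 ratios of -1.76 in T22 and 0.48 in T127. Of its genes tested, 2 of 6 and 2 of 5 were called higher and 3 and 1 lower. The reference cells differed: the smooth muscle panel was at 1945 CPM in all other T22 cells and at 14.1 CPM in those of T127.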

How the results depend on the processing

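No test was run, so no call rests on a p-value. No paired analysis was possible because the labels tie the pool numbers to no shared animal, batch or day and each experiment counts as 1 sample. With cells of at least 1000 genes the long-term share was 0.743%. Of non-malignant cells the shares were 1.32%, 0.670% and 3.77%, and of stromal clusters 22.8%, 17.3% and 53.4% (long-term, T22, T127 throughout). The log2 ratio of the panel, 8.02, 7.82 and 8.52, was 7.78, 7.63 and 8.19 with a pseudocount of 10 CPM. In T22 and T127 it was 7.91 and 8.45 without the top 5% of cells by UMIs, and 8.10 and 7.96 as a mean over cells.

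With a minimum of 50 CPM the counts of genes higher in endothelial cells fell from 1681, 1623 and 1446 to 806, 934 and 817 against all other cells, from 1654, 1381 and 2485 to 698, 729 and 1017 against my_CAF, and from 1731, 1674 and 1963 to 826, 863 and 999 against i_CAF. They were 110 higher and 79 lower in T22 than in T127 (234 and 183 otherwise). With no minimum the my_CAF counts were 2752, 2617 and 4537 and the T22 i_CAF count 2731. A pseudocount of 10 CPM gave 1089 (my_CAF) and 1134 (i_CAF) in the long-term pools and 103 genes lower in T22 than in T127.

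With pools left out in turn, shares ran from 0.926% to 1.01%, 0.574% to 0.596% and 1.30% to 1.59%, and panel ratios from 8.00 to 8.05, 7.79 to 7.84 and 8.51 to 8.54. Counts ran from 1650 to 1730, 1648 to 1697 and 1493 to 1514 against all other cells, from 1663 to 1738, 1454 to 1469 and 2528 to 3064 against my_CAF, and from 1709 to 1799, 1706 to 1786 and 2009 to 2108 against i_CAF. Genes higher in T22 ran from 278 to 327 and lower from 233 to 289, the highest without T22 pool 4, where fewer pools had to separate. Among named genes, 158 of 3195 values over 213 long-term genes moved by more than the spread between pools, and 32 of 616 over 44 genes between T22 and T127, with 0 changes of direction in a called value. Leaving out cells with under 3 panel UMIs, an alternative chosen after the data were seen, moved no count by over 1.5 times. Leaving out the endothelial cell with the most mural UMIs, chosen likewise, was run on 7 list sums alone: the mural panel went from 398 to 89.1 CPM in T22 and from 474 to 273 CPM in T127, complement genes in T22 from 146 to 61.5 CPM, and the fibroblast panel from 102 to 57.8 CPM in T22 and from 95.4 to 39.6 CPM in T127. Leaving out, for each gene called between T22 and T127, the cell with the most UMIs of it on the higher side, also chosen after the data were seen, left 166 of 234 genes higher and 134 of 183 lower, with Selp, Id4, Cd55, Usp18 and Psmb8 lost among the named genes. Depth limits rare genes: 1 UMI was worth about 1 CPM.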

Other observations

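Igfbp3, which binds insulin-like growth factors, varied with Esm1 in the endothelial cells. In cells with an Esm1 UMI it was at 5326 CPM in the long-term, 6435 CPM in the T22 and 6560 CPM in the T127 experiment, and in cells without one at 2480, 1088 and 4878 CPM. The ratios were 2.15 (2.01 to 2.29), 5.92 (5.35 to 6.55) and 1.34 (1.28 to 1.41), where the intervals cover counting error only.

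Top2a, which marks dividing cells, took opposite sides of that division in its summed level. It was 0.195 and 0.473 times as high in Esm1 cells of the long-term and T22 experiments and 1.76 times as high in those of T127. In T127 35.5% of these Top2a UMIs came from 1 cell, and in T22 48.6% did. By cells the T127 sides were close, with a Top2a UMI in 8 of 46 cells with Esm1 and 11 of 72 without. Gja4 did likewise, at 0.574, 5.90 and 1.04 times, and 54.8% of its UMIs in T22 cells with Esm1 came from 1 cell.

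Cxcr4, the receptor of Cxcl12, was at 123, 123 and 199 CPM in endothelial cells and 1.74, 6.01 and 2.88 times as high in cells with Esm1. Endothelial Cxcl12 itself ranged over pools from 259 to 1487 CPM, from 156 to 853 CPM and from 46.5 to 197 CPM.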
